A study of Mus musculus with 24 samples.

Results

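The genes of bile acid synthesis and transport examined here were *Cyp7a1*, *Cyp8b1*, *Cyp27a1*, *Cyp7b1*, *Hsd3b7*, *Nr0b2*, *Nr1h4*, *Abcb11* and *Slc10a1*. They were chosen by their names, 9 of the 54733 genes listed in each library, and all 9 were among the 11244 genes whose mean over all libraries was at least 1 FPKM (fragments scaled by transcript length and by the number of mapped fragments). The series compared the liver transcriptomes of wild-type (WT) mice and of ΔRRE mice over the circadian day. Poly(A)-tailed RNA of 24 livers was sequenced, 12 of each genotype, taken every 4 h from CT2 to CT22 (circadian time in hours) with 2 livers per genotype and time. All mice were males of the C57BL/6 strain, and their ages are not in the labels. For mice whose tissues were taken for RNA the methods give a range of ages in weeks, and the description of the sequencing gives none. The methods describe tissue collection in constant darkness, with times projected from the earlier light cycle. ΔRRE mice are homozygous for a CRISPR-Cas9 deletion of the RREs, the sites in the *Bmal1* gene that are bound by REV-ERB and ROR proteins. The methods name line #1 as the default ΔRRE line, so the genotype is represented by 1 deletion, present in the germline and thus in every cell type.

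Bile acids are made from cholesterol in hepatocytes and solubilise fat and cholesterol in the intestine, from which most of them return to the liver. CYP7A1, a cholesterol 7α-hydroxylase, sets the rate of the classic pathway, HSD3B7 oxidises its first intermediate, and CYP8B1, a sterol 12α-hydroxylase, directs the product towards cholic acid. CYP27A1 hydroxylates the sterol side chain and opens an alternative pathway, in which CYP7B1 is the 7α-hydroxylase. FXR, the bile acid receptor encoded by *Nr1h4*, induces *Nr0b2*, whose product SHP lowers transcription of *Cyp7a1* and *Cyp8b1*. ABCB11 exports bile salts across the canalicular membrane, and SLC10A1 takes them up from blood across the basolateral membrane. Daily changes of *Cyp7a1* in rodent liver are textbook knowledge.

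The members lie on separate chromosomes except for *Cyp7a1* and *Nr0b2*, which are both on chromosome 4. In GRCm38 (GENCODE M21), the genes span chr4:6265612-6275633 (*Cyp7a1*, minus strand), chr9:121914356-121916305 (*Cyp8b1*, minus), chr1:74713574-74737892 (*Cyp27a1*, plus), chr3:18071950-18243338 (*Cyp7b1*, minus) and chr7:127800604-127803802 (*Hsd3b7*, plus). The regulators span chr4:133553376-133556536 (*Nr0b2*, plus) and chr10:89454234-89533585 (*Nr1h4*, minus), and the transporters chr2:69238282-69342616 (*Abcb11*, minus) and chr12:80953183-80968705 (*Slc10a1*, minus).

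Promoter sequences are shown for the genes whose expression varied with time of day in the fit of both genotypes and for which RefSeq (GRCm38.p6) gave an entry, since these are the sequences upstream of the rhythmic transcripts. Of the 9 genes, 7 had an entry, and *Cyp7a1* and *Cyp7b1* had none. Each line gives the 250 bases before the start site on the gene's own strand, from 5′ to 3′, with the matches to the searched letters in capitals. The letters searched on both strands were CACGTG (the E-box bound by CLOCK-BMAL1), AGGTCA (a nuclear receptor core motif), CAAGGTCA, which contains the former, TTATGTAA and TTACGTAA (D-box forms), and TATAAA (the core of the TATA box). The windows are chr7:127800359-127800608 (plus strand) for *Hsd3b7*, chr2:69342617-69342866 (minus) for *Abcb11*, chr9:121916306-121916555 (minus) for *Cyp8b1* and chr4:133553126-133553375 (plus) for *Nr0b2*.
Hsd3b7: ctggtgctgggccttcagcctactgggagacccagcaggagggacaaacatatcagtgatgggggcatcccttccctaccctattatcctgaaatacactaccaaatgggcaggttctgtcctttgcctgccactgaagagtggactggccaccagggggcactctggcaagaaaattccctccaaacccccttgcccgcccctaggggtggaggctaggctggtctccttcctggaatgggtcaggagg
Abcb11: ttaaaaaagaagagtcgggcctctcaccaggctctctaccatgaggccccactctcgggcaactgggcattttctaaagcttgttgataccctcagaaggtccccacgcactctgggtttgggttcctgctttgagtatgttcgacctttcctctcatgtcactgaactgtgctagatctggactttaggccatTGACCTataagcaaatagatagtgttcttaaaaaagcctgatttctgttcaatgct
Cyp8b1: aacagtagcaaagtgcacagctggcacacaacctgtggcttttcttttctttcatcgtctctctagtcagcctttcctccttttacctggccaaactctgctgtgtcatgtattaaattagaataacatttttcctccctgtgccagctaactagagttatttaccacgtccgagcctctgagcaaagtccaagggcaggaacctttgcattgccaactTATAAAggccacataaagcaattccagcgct
Nr0b2: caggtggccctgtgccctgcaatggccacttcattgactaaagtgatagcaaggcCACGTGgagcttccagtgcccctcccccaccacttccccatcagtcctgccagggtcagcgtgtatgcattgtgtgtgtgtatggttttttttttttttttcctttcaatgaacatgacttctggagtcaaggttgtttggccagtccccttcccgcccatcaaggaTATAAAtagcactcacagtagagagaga

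The *Nr0b2* window held CACGTG with its first base 195 bases before the start site (-195) and TATAAA at -28. In the *Cyp8b1* window TATAAA began at -31. That of *Abcb11* held AGGTCA on the opposite strand, read as TGACCT, from -56, and that of *Hsd3b7* held none of these letters. Matches were not particular to the called genes. Among the uncalled members, *Nr1h4* held AGGTCA on the opposite strand at -214. *Slc10a1* held TATAAA on the opposite strand at -128 and, in another window, AGGTCA at -87. Over all 32851 promoters of the table, windows of the same length held CACGTG in 6.02%, AGGTCA in 14%, TATAAA in 12.4%, CAAGGTCA in 1.33%, TTATGTAA in 0.819% and TTACGTAA in 0.113%.

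The genotype labels were checked with *Bmal1* (listed as *Arntl*), the gene that carries the deletion. In WT its level was 12.6 and 13.2 FPKM at CT2, 0.195 and 0.0919 FPKM at CT10 and 10.3 and 11.2 FPKM at CT22, and in the 12 ΔRRE libraries it stayed between 2.096 and 4.21 FPKM. The hepatocyte markers *Alb*, *Ttr*, *Apoa1*, *Cps1* and *Serpina1c* summed to between 32496 and 49278 FPKM per library. Marker sums of other liver cells were far lower, at 11.9 to 44.1 FPKM for cholangiocytes, 12.8 to 92.3 for Kupffer cells, 27.3 to 72.9 for stellate cells and 17.2 to 35.9 for endothelial cells. Of the 3 markers of ileal enterocytes, *Fgf15* and *Fabp6* were listed at 0 in all 24 libraries. *Slc10a2*, the third of them, is also used by cholangiocytes and lay between 1.43 and 14.6 FPKM. In bulk liver, fewer cells of a type and less RNA per cell cannot be told apart.

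FPKM are scaled per length, so levels can be set side by side between genes. Over the 24 libraries the mean level in FPKM fell from *Cyp27a1* (251 ± 28.9, SD) through *Slc10a1* (231 ± 33.6), *Hsd3b7* (177 ± 62.0), *Cyp8b1* (147 ± 74.6), *Cyp7b1* (114 ± 53.9) and *Abcb11* (104 ± 34.8) to *Nr1h4* (47.7 ± 7.63), *Cyp7a1* (37.5 ± 19.4) and *Nr0b2* (27.0 ± 11.6). Neighbours in this order were not well separated. The only neighbours that kept their order in nearly every liver were *Abcb11* and *Nr1h4*, with *Abcb11* higher in 22 of 24 libraries. For the other neighbours the gene with the higher mean was higher in 12 to 17 of 24 libraries. *Cyp27a1*, *Slc10a1* and *Nr1h4* had the lowest ratios of the highest to the lowest library, and *Cyp7a1* and *Nr0b2* the highest ratios.

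Time of day was examined first in both genotypes together, by fitting a 24 h wave (a cosine and a sine term) to log2(FPKM + 0.1) of all 24 libraries with the genotype as a term (joint fit, limma's moderated F-test, Benjamini-Hochberg adjustment over 11244 genes). At an adjusted p under 0.05, 5 of the 9 genes were rhythmic, namely *Cyp7a1*, *Cyp8b1*, *Hsd3b7*, *Nr0b2* and *Abcb11*, while 30.6% of all genes tested were called. The median fitted amplitude, from the mean of the wave to its peak, was 0.67 on the log2 scale over the 9 genes and 0.17 over all genes tested. Because the 9 genes were chosen with earlier results of these data known, these comparisons with all genes are a description. Of the 5 called genes, *Cyp7a1* peaked in the early subjective night and the other 4 in the hours around subjective dawn and morning. *Cyp27a1*, *Cyp7b1*, *Nr1h4* and *Slc10a1* did not pass the test, with amplitudes of 0.12, 0.25, 0.14 and 0.15.

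**Figure D1:**
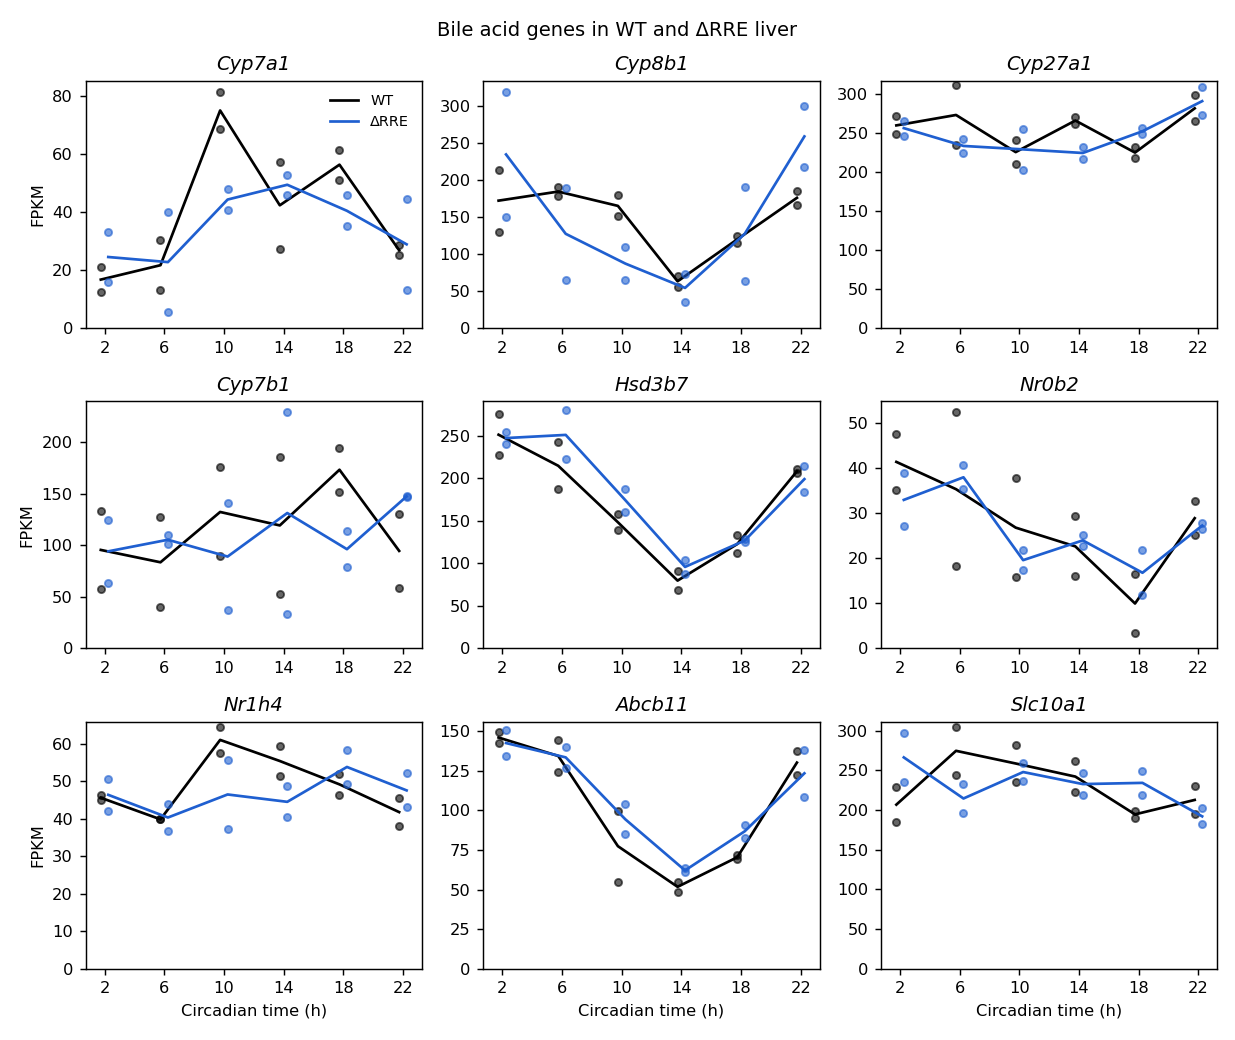
Expression of the 9 genes against circadian time in h, in FPKM on linear axes that start at 0, with 1 point per library (WT black, ΔRRE blue, 2 livers per point in time) and lines through the means. *Hsd3b7* and *Abcb11* are low at CT14 in both genotypes, where their highest libraries are at 104 and 63.4 FPKM, whereas the 2 libraries of many *Cyp7b1* groups lie far apart.

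*Cyp7a1*, the rate-limiting enzyme of the classic pathway, was high from CT10 to CT18. In WT it stood at 21.1 and 12.3 FPKM at CT2, 30.3 and 13.0 at CT6, 68.8 and 81.5 at CT10, 27.3 and 57.4 at CT14, 51.2 and 61.6 at CT18, and 25.1 and 28.6 at CT22. In ΔRRE it stood at 33.1 and 15.9 FPKM at CT2, 5.39 and 40.1 at CT6, 40.8 and 47.9 at CT10, 53.0 and 45.9 at CT14, 45.8 and 35.1 at CT18, and 13.1 and 44.6 at CT22. The WT livers of CT10 and CT18 lay above all WT livers of CT2, CT6 and CT22, whereas in ΔRRE single livers of CT6 and CT22 reached the level of the CT10 to CT18 livers. The joint fit gave an amplitude of 0.84 ± 0.20 (SE) on the log2 scale, a peak at CT14.38 ± 0.91 h and a ratio of fitted peak to trough of 3.22 (adjusted p = 0.0089). Fitted within each genotype, the peak was at CT14.02 ± 0.95 h in WT (adjusted p = 0.0501) and CT14.83 ± 1.56 h in ΔRRE (adjusted p = 0.284), so neither genotype alone passed the test with its 12 libraries. With single libraries left out, the WT adjusted p ran from 0.00883 to 0.1251 (limma). The lowest value was that without WT CT14 replicate 1, at 27.3 FPKM the low liver of its pair.

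*Hsd3b7*, the enzyme of the following step, was lowest at CT14. WT livers held 275 and 227 FPKM at CT2, 187 and 242 at CT6, 158 and 139 at CT10, 68.5 and 90.8 at CT14, 133 and 112 at CT18, and 210.4 and 206 at CT22. ΔRRE livers held 255 and 239.7 FPKM at CT2, 222 and 279.7 at CT6, 160.4 and 188 at CT10, 87.8 and 104 at CT14, 128 and 125 at CT18, and 215 and 183 at CT22. Replicates were close, and no CT14 liver overlapped with a liver of another time of its genotype. The joint amplitude was 0.73 ± 0.06 with a peak at CT2.83 ± 0.31 h and a peak to trough ratio of 2.74 (adjusted p = 2.74e-08). *Hsd3b7* passed the test in WT alone (adjusted p = 0.000822, peak at CT2.44 ± 0.44 h) and in ΔRRE alone (adjusted p = 0.00143, peak at CT3.28 ± 0.42 h).

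*Cyp8b1*, which sets the share of cholic acid, was also lowest at CT14, with more spread between replicates in ΔRRE. Its WT levels were 214 and 130.3 FPKM at CT2, 178 and 191 at CT6, 179 and 151 at CT10, 55.3 and 70.7 at CT14, 125 and 115 at CT18, and 166 and 185 at CT22. Its ΔRRE levels were 319 and 149 FPKM at CT2, 64.8 and 189.6 at CT6, 65.0 and 109 at CT10, 35.7 and 72.5 at CT14, 191 and 63.3 at CT18, and 217 and 300.5 at CT22. The CT14 livers were the lowest of WT without overlap, while in ΔRRE single livers of CT6, CT10 and CT18 fell within the range of CT14. In the joint fit *Cyp8b1* peaked at CT1.26 ± 0.80 h with an amplitude of 0.79 ± 0.17 and a peak to trough ratio of 3.01 (adjusted p = 0.00305). Within a genotype the adjusted p was 0.0510 in WT and 0.0580 in ΔRRE. Among the low values, 35.7 FPKM in ΔRRE CT14 replicate 1 and 65.0 FPKM in ΔRRE CT10 replicate 1 came from the 2 libraries with the highest sum of 9 acute-phase genes (8784 and 6573 FPKM, against 1642 to 4237 in WT and 2024 to 4561 in the other ΔRRE livers), whose part in the result was not tested beyond leaving these libraries out. Without them *Cyp8b1* passed the joint test with an adjusted p of 0.01775. Other low ΔRRE values were 63.3 FPKM in CT18 replicate 2, 64.8 FPKM in CT6 replicate 1 and 72.5 FPKM in CT14 replicate 2. The acute-phase sums of these livers were lower, at 2554, 3762 and 2275 FPKM. With single libraries left out, the adjusted p of *Cyp8b1* ran from 0.01915 to 0.1372 in WT and from 0.04442 to 0.1359 in ΔRRE (limma). It fell under 0.05 in WT without WT CT2 replicate 2 or WT CT10 replicate 1, and in ΔRRE without ΔRRE CT6 replicate 1. *Cyp8b1* also passed in WT with time as a factor (0.01764) and in ΔRRE with a spread shared by both genotypes (0.01098). Under each of these settings the other genotype did not pass. After rescaling by the median of ratios, or without a filter on low values, neither genotype passed alone. The ΔRRE adjusted p was 0.2564 without the 2 libraries with the highest acute-phase sums.

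*Cyp27a1*, the side chain hydroxylase, varied little, from 209.6 to 311 FPKM in WT with a median of 255 and from 202 to 309 FPKM in ΔRRE with a median of 247. Its joint adjusted p was 0.0954, at an amplitude of 0.12 ± 0.04, and 0.0475 without WT CT6 replicate 1, the highest library. Over single libraries left out, the joint adjusted p ran from 0.0475 to 0.192 (limma). Both genotypes covered nearly the same range of FPKM.

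*Cyp7b1*, the 7α-hydroxylase of the alternative pathway, differed more between replicate livers than between times. In WT the values for replicates 1 and 2 were 58.1 and 133 FPKM at CT2, 39.7 and 128 at CT6, 89.3 and 176 at CT10, 53.2 and 186 at CT14, 152 and 195 at CT18, and 58.6 and 131 at CT22. In ΔRRE they were 63.4 and 125 FPKM at CT2, 109.8 and 101 at CT6, 37.2 and 141 at CT10, 33.0 and 230.0 at CT14, 78.7 and 114 at CT18, and 148 and 147 at CT22. Replicate 1 was the lower liver in all 6 WT groups and in 4 of the 6 ΔRRE groups. This pattern was noticed in the values and then fitted, with the replicate number as a term beside the 12 groups. Replicate 2 exceeded replicate 1 by 1.11 ± 0.21 on the log2 scale, a ratio of 2.15, with an unadjusted p of 0.00011 and an adjusted p of 0.0724 over all genes (limma), which missed the threshold. Among all genes 0.08% were called for the replicate number, and among the 9 genes examined none was, the other 8 having adjusted p-values from 0.595 to 0.962. What the replicate number stands for is not given in the labels. *Cyp7b1* was not called rhythmic in the joint fit (adjusted p = 0.650), in WT (0.555) or in ΔRRE (0.747). The lowest ΔRRE values, 33.0 and 37.2 FPKM, came from the same libraries that had the highest acute-phase sums.

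**Figure D2:**
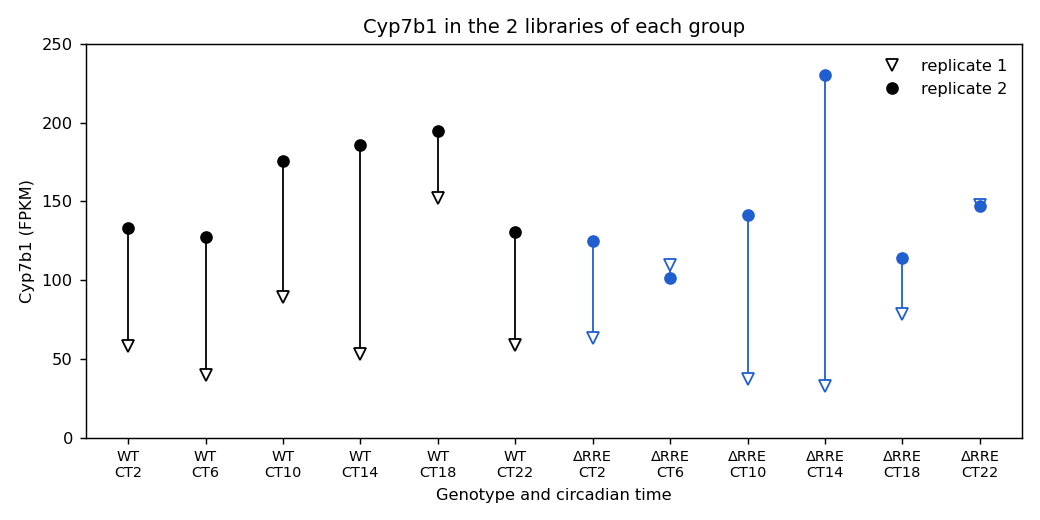
*Cyp7b1* in FPKM (linear axis from 0) for replicate 1 (open triangles) and replicate 2 (filled circles) of each of the 12 groups, joined by a line, with WT in black and ΔRRE in blue. Replicate 1 is the lower of the pair in 10 of 12 groups.

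*Nr0b2*, which encodes the repressor SHP, was lowest at CT18. It measured 47.7 and 35.1 FPKM at CT2, 52.4 and 18.3 at CT6, 15.8 and 37.8 at CT10, 29.3 and 16.0 at CT14, 16.4 and 3.49 at CT18, and 25.2 and 32.6 at CT22 in WT. In ΔRRE the measurements were 27.1 and 38.8 FPKM at CT2, 40.6 and 35.4 at CT6, 17.4 and 21.7 at CT10, 25.2 and 22.8 at CT14, 21.7 and 11.8 at CT18, and 26.6 and 27.9 at CT22. Most times overlapped with others in each genotype, and the single lowest value was 3.49 FPKM in WT CT18 replicate 2. The joint fit placed the peak at CT4.23 ± 1.04 h with an amplitude of 0.67 ± 0.18 and a peak to trough ratio of 2.51 (adjusted p = 0.0215). In WT alone the adjusted p was 0.190 and in ΔRRE alone 0.117. Without a filter on low values the joint adjusted p was 0.05375, so this call depended on the filter.

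*Nr1h4*, which encodes FXR, lay between 38.2 and 64.5 FPKM in WT with a median of 46.3 and between 36.8 and 58.4 FPKM in ΔRRE with a median of 46.3. The highest WT livers were 1 of CT10 (64.5 FPKM, the other being at 57.7) and 1 of CT14 (59.5 FPKM, the other being at 51.4), and the highest ΔRRE liver was 1 of CT18 (58.4 FPKM, the other being at 49.4). It did not pass the joint test (amplitude 0.14 ± 0.06, adjusted p = 0.175). Without the 2 libraries with the highest acute-phase sums, an alternative chosen after the data were seen, the joint adjusted p was 0.0335.

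*Abcb11*, the bile salt export pump, followed a course like that of *Hsd3b7*. WT livers measured 143 and 149.6 FPKM at CT2, 144 and 125 at CT6, 99.9 and 55.0 at CT10, 48.5 and 55.1 at CT14, 69.0 and 71.9 at CT18, and 138 and 123 at CT22. ΔRRE livers measured 134 and 151 FPKM at CT2, 127 and 139.9 at CT6, 104 and 84.8 at CT10, 60.8 and 63.4 at CT14, 82.6 and 91.0 at CT18, and 108 and 138 at CT22. All livers of CT2, CT6 and CT22 were above all those of CT10, CT14 and CT18, in each genotype. The joint amplitude was 0.68 ± 0.06, the peak was at CT2.29 ± 0.34 h and the peak to trough ratio was 2.56 (adjusted p = 8.41e-08). The gene passed the test in WT (adjusted p = 0.000822, peak at CT2.16 ± 0.44 h) and in ΔRRE (adjusted p = 0.00234, peak at CT2.46 ± 0.46 h).

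*Slc10a1*, the basolateral uptake transporter, ranged from 185 to 305.0 FPKM in WT with a median of 229 and from 182 to 298 FPKM in ΔRRE with a median of 234. Its joint amplitude was 0.15 ± 0.05 (adjusted p = 0.0925), and the gene passed the joint test without ΔRRE CT2 replicate 1 (0.03746) or ΔRRE CT6 replicate 1 (0.0371). Over single libraries left out, the joint adjusted p ran from 0.0371 to 0.177 (limma). The export pump thus passed the test for time of day and the uptake transporter did not, a difference that was not itself tested.

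When each genotype was fitted alone, *Hsd3b7* and *Abcb11* were the members called in WT, 2 of 9 genes against 10.3% of all genes tested, and also those called in ΔRRE, 2 of 9 against 4.57%. The study defined rhythmic genes by looser criteria, a p under 0.3, a ratio of over 1.5 between the highest and lowest mean of a time point, and a limit on the SD. With the harmonic p in place of the study's BIO_CYCLE p, these criteria were met by 6 of the 9 genes in WT (*Cyp7a1*, *Cyp8b1*, *Hsd3b7*, *Nr0b2*, *Nr1h4* and *Abcb11*), against 37% of all genes tested. In ΔRRE they were met by 5 of the 9 (the same without *Nr1h4*), against 35.4%.

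**Figure D3:**
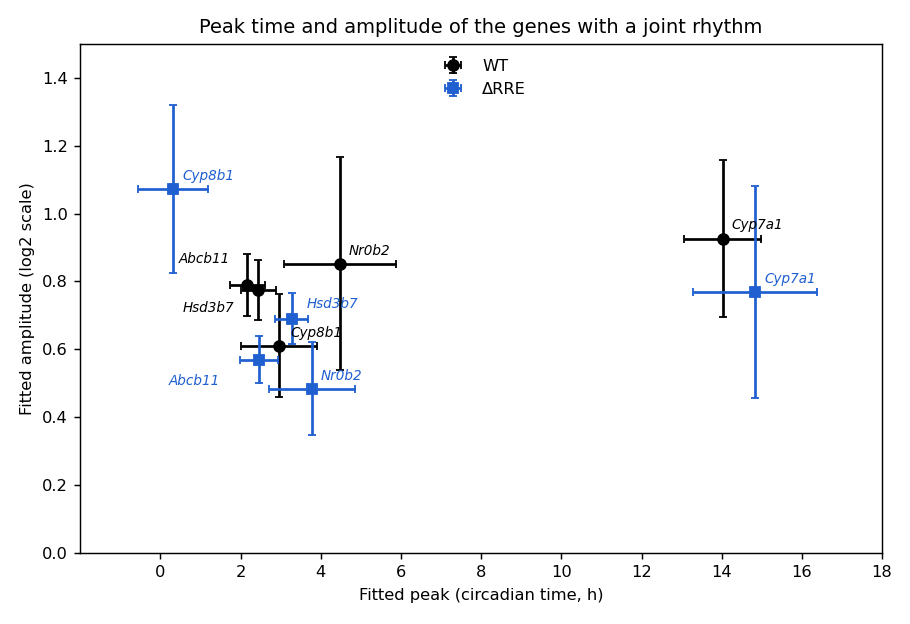
Fitted amplitude on the log2 scale against the fitted peak in circadian hours for the 5 genes called in the joint fit, with WT in black, ΔRRE in blue and bars for 1 SE on each axis. *Cyp7a1* lies near CT14 in both genotypes and the other 4 genes lie between CT0.31 and CT4.48.

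The question of the design is whether these rhythms and levels differ in mice without the *Bmal1* RREs. No member was called for a difference in rhythm. The test of the genotype by cosine and genotype by sine terms called 0 of the 9 genes at an adjusted p under 0.05 (adjusted p = 0.9999 for each, limma), and 0 of 9 at an unadjusted p under 0.05, against 2.84% of all genes tested. *Bmal1* was the 1 gene called among 11244. For *Hsd3b7* the amplitude differed by -0.08 ± 0.12 (ΔRRE minus WT, log2 scale) and the peak by 0.84 ± 0.62 h, and for *Abcb11* by -0.22 ± 0.12 and 0.29 ± 0.68 h. For *Cyp7a1* these differences were -0.16 ± 0.42 and 0.81 ± 1.91 h. *Cyp8b1* differed by 0.46 ± 0.31 in amplitude and by -2.65 ± 1.59 h in peak, with an unadjusted p of 0.0932, and *Nr0b2* differed by -0.37 ± 0.37 and -0.70 ± 2.38 h. The lowest unadjusted p, 0.0560, was that of *Nr1h4*, which was not called rhythmic in either genotype. Its fitted amplitude differed by -0.10 ± 0.11 and its fitted peak by 6.04 ± 2.43 h. A p that misses the threshold does not show that the genotypes are alike, and for *Cyp7a1*, *Cyp8b1* and *Nr0b2* the errors of the peak time were 1.59 h to 2.38 h.

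Mean levels over the 6 times were compared in a fit with time as a factor. None of the 9 genes was called, at an adjusted p under 0.05 or at an unadjusted p under 0.05, whereas 8.91% of all genes tested had an unadjusted p under 0.05 and none of them an adjusted p under 0.05 (limma). The lowest unadjusted p was that of *Hsd3b7*, at a difference of 0.12 ± 0.07 (ΔRRE minus WT, log2 scale, 95% interval -0.03 to 0.26, unadjusted p = 0.107, adjusted p = 0.664). *Abcb11* followed with 0.13 ± 0.08 (-0.04 to 0.30). For *Cyp7a1* the difference was -0.17 ± 0.27 (-0.73 to 0.40), for *Cyp8b1* -0.20 ± 0.22 (-0.66 to 0.27) and for *Cyp7b1* -0.08 ± 0.33 (-0.77 to 0.60). That of *Cyp8b1* was -0.03329 without the 2 libraries with the highest acute-phase sums and ran from -0.30 to -0.08 over single libraries left out. The livers of a group lay far apart for these genes, and the intervals were wide on both sides of 0. The difference was bounded more narrowly for *Slc10a1* at 0.00 ± 0.08 (-0.16 to 0.17), *Cyp27a1* at -0.04 ± 0.06 (-0.17 to 0.08) and *Nr1h4* at -0.07 ± 0.08 (-0.23 to 0.10). *Nr0b2* stood at 0.13 ± 0.24 (-0.36 to 0.62). The median difference was -0.04 over the 9 genes and 0.04 over all genes tested, and its median size 0.12 and 0.08.

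**Figure D4:**
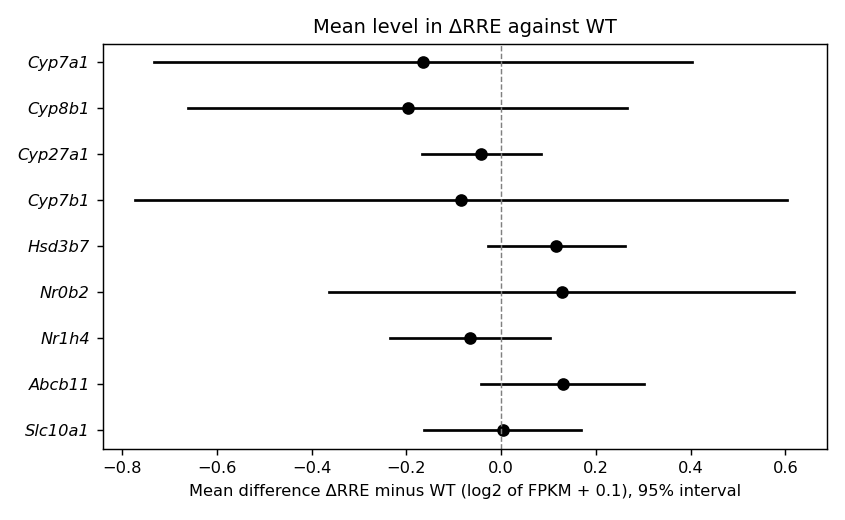
Difference of the mean level (ΔRRE minus WT, log2 scale) of the 9 genes over the 6 times, with points for the estimate and bars for the 95% interval. Every interval includes 0, and the intervals of *Cyp7a1*, *Cyp8b1*, *Cyp7b1* and *Nr0b2* are the widest.

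At single times the 2 WT livers and the 2 ΔRRE livers did not overlap in 16 of 54 pairs of gene and time, while 31.2% of such pairs did not overlap over all genes tested. *Slc10a1* accounted for 3 of them (CT2, CT6 and CT18), *Hsd3b7* for 1 (CT10) and *Nr0b2* for none, and each of the other 6 genes accounted for 2. The share was thus near that of all genes.

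Replicate livers of a group also show whether genes move together apart from time and genotype. The deviations from the group mean were compared in the 36 pairs of genes over the 12 groups, with a two-sided exact permutation test over all 4096 sign flips. No pair passed after Benjamini-Hochberg adjustment over the 36 pairs by Pearson's r (lowest adjusted p = 0.229) or by Spearman's rho (lowest adjusted p = 0.264), and 4 pairs had an unadjusted p under 0.05 by each measure. *Cyp7a1* and *Cyp8b1* had the highest r of these, 0.656, with a rho of 0.656 (exact unadjusted p = 0.0259 and 0.0220, adjusted p = 0.303 and 0.264), and the same direction in 8 of 12 groups. The r of this pair was 0.463 without the 2 groups whose livers differed most in *Cyp7a1*. The other pairs were *Cyp8b1* with *Hsd3b7* (r = 0.551, rho = 0.579, exact unadjusted p = 0.0127 and 0.0146) and with *Cyp27a1* (r = 0.438, rho = 0.538, exact p = 0.0112 and 0.0137), and *Cyp27a1* with *Nr1h4* (r = 0.586, rho = 0.572, exact p = 0.0337 and 0.0449). Without the 2 groups whose livers differed most in the first-named gene of the pair, the r of these pairs was 0.548, 0.485 and 0.565. How often pairs of other genes reach such values was not computed, so the 4 pairs are a description.

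Across the 12 group means, which share the course of the day and so are a description, some members ran in parallel and others in opposition. *Hsd3b7* and *Abcb11* had a Pearson's r of 0.972, and *Cyp8b1* had 0.752 with *Hsd3b7* and 0.751 with *Abcb11*. *Cyp7a1* had -0.823 with *Abcb11*, -0.744 with *Hsd3b7* and -0.711 with *Nr0b2*, but 0.705 with *Nr1h4*. In turn *Nr1h4* had -0.638 with *Abcb11* and -0.571 with *Hsd3b7*. *Slc10a1* stood on neither side, at 0.169 with *Cyp7a1*, -0.0881 with *Abcb11* and -0.0639 with *Hsd3b7*, and *Cyp7b1* had -0.203 with *Hsd3b7*. Outside the 9 genes, the 3 closest to *Hsd3b7* by this r were *Amt* (0.994), *Rnf141* (0.974) and *Acat3* (0.970), and those closest to *Abcb11* were *Bco2* (0.974), *Acat3* (0.973) and *Amt* (0.972), so that *Amt* and *Acat3* appeared in both. For *Cyp7a1* they were *Wee1* (0.943), a kinase that inhibits entry into mitosis, *Usp2* (0.910), a deubiquitinase, and *Noct* (0.907), also known as Nocturnin. The closest were *Spon2* (0.913), *Gm48633* (0.895) and *Adh4* (0.894) for *Cyp8b1*, and *Plxnd1* (0.955), *Gm35164* (0.909) and *Med17* (0.907) for *Nr0b2*. *Cyp7b1* was closest to *Cyp4a12a* (0.873), *C6* (0.853) and *Rarres1* (0.852). The highest values were 0.837 for *Cyp27a1* (*N4bp2l2*), 0.915 for *Nr1h4* (*Rfxap*) and 0.878 for *Slc10a1* (*Tgfbr2*). Such values are the top of 11244 genes over 12 points and carry no test.

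A list of 39 further genes of bile acid metabolism was chosen by function, with earlier results of these data known, and counted as a whole. Its shares beside those of all genes are thus a description. Of these, 34 were tested, and *Ch25h*, *Abcb1a*, *Abcc4*, *Slc51a* and *Slc51b* had a mean under 1 FPKM. The joint fit called 18 of 34 (52.9%, against 30.6% of all genes tested), with a median amplitude of 0.22 over the 34. WT alone gave 2 calls of 34 (*Akr1c6* and *Slc27a2*, against 10.3% of all genes tested) and ΔRRE alone gave 3 of 34 (*Abcg5*, *Abcg8* and *Nr5a2*, against 4.57%), while no gene of the list was called for a difference in rhythm or in mean level. For the difference in rhythm none had an unadjusted p under 0.05, and for the mean level 3 of 34 did (*Amacr*, *Abcc3* and *Nr5a2*), a share near the 8.91% of all genes tested.

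By role, the joint fit called all 5 tested transporters and flippases of the canalicular membrane (*Abcc2*, *Abcb4*, *Abcg5*, *Abcg8* and *Atp8b1*), 0 of the 4 tested basolateral transporters, 1 of the 4 tested core enzymes, 5 of the 11 side chain and conjugation enzymes and 7 of the 10 regulators. None of the tested basolateral genes of the list had an unadjusted joint p under 0.05 (limma). Their adjusted p ran from 0.136 for *Slco1b2* to 0.343 for *Slco1a1*. The member *Slc10a1*, also basolateral, had an unadjusted joint p of 0.0356 (limma) and was not called after adjustment (0.0925). The median joint amplitude was 0.26 over the canalicular and 0.22 over the basolateral genes of the list. Uncalled *Slco1a4* (0.33) and *Slco1a1* (0.29) lay above called *Abcc2* (0.23), *Atp8b1* (0.25) and *Abcb4* (0.26), and *Slco1b2* (0.16) and *Abcc3* (0.12) lay below. Differences between roles were not tested, and 30.6% of all genes tested were called. The widest waves of the list were those of *Abcg8* and *Abcg5*, which together form the sterol exporter of the canalicular membrane, with amplitudes of 0.88 ± 0.17 (peak at CT7.42 ± 0.75 h, adjusted p = 0.00175) and 0.80 ± 0.16 (CT8.74 ± 0.75 h, adjusted p = 0.00185). Both were highest in ΔRRE CT10 replicate 1 (71.9 and 124 FPKM, against 44.0 and 66.6 in replicate 2). That library had 1 of the 2 highest acute-phase sums. Calls of the further list, those in ΔRRE alone included, were not repeated without it. *Baat*, which conjugates bile acids to taurine and glycine, had the smallest p of the list at an amplitude of only 0.21 ± 0.04 (CT23.84 ± 0.70 h, adjusted p = 0.000878). *Acox2*, a peroxisomal side chain oxidase, had 0.36 ± 0.08 (CT2.26 ± 0.80 h, adjusted p = 0.00323), *Amacr*, a racemase of the same route, 0.26 ± 0.05 (CT6.53 ± 0.79 h, adjusted p = 0.00262) and *Akr1c6* 0.22 ± 0.05 (CT4.96 ± 0.80 h, adjusted p = 0.00323). The peaks of these 6 genes ran from CT23.84 to CT8.74, and other called genes of the list peaked later, with *Slc27a2* at CT11.27, *Hnf4a* at CT13.20, *Nr1i2* at CT14.92 and *Nr1h3* at CT21.19.

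**Figure D5:**
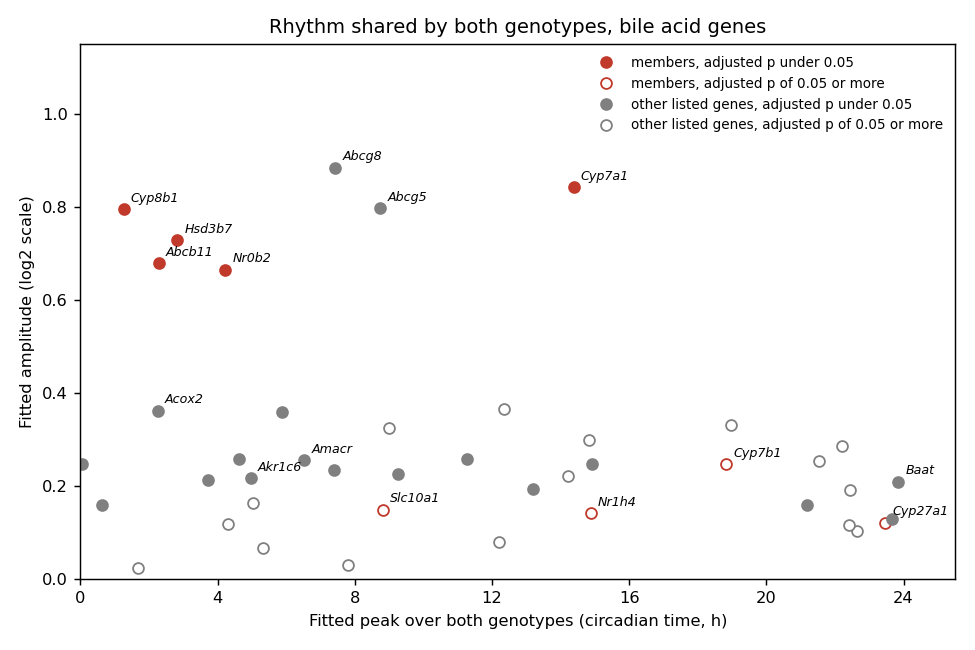
Fitted amplitude of the joint fit (log2 scale) against the fitted peak in circadian hours for the 9 genes (red) and the 34 tested genes of the further list (grey), with filled points for an adjusted p under 0.05 and open points for the others. The 5 called members lie between 0.67 and 0.84, and of the further list *Abcg8* and *Abcg5* alone reach such amplitudes.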

How the data were processed

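Poly(A)-tailed RNA of 24 mouse livers was sequenced in pairs of reads from directional libraries. For each library the authors deposited FPKM per gene in a table of its own, with no replicates pooled, and the submitters' processing notes name Trimmomatic 0.39, HISAT2 2.1.0, StringTie 1.3.5 and the build mm10. A deposited table of the whole series held the same values (1313592 of 1313592 equal) and was not used further. The reads behind an FPKM value are unknown, so no counting error is given and count tests were not run. FPKM summed to between 554170 and 624746 per library, and the values were not scaled further.

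Groups were taken from the genotype and time in the labels. The labels number the libraries of a group without naming mice, and the methods give 2 livers per genotype and time. The p-values measure the spread between these libraries. Genes averaging at least 1 FPKM were taken to the scale of log2(FPKM + 0.1) from the deposited values, and limma 3.58.1 (R 4.3.3) with an intensity trend was fitted to all 11244 of them. Fold values on this scale understate changes of low genes. The fits were a 24 h cosine and sine in each genotype and in both together, genotype by cosine and sine terms, and genotype with time as a factor. Calls required a Benjamini-Hochberg adjusted p under 0.05. BIO_CYCLE, used by the study, was not run. Pairs of genes were compared by exact sign flips of the 12 within-group differences. The alternatives were other constants, filters, scaling, variance prior, time as a factor, a shared spread, the criteria of the study's methods, the replicate number as a term and leaving out each library. For pairs of genes, whole groups were left out in place of single libraries. The fits were tested on simulated data. Python 3.11.15, NumPy 2.4.6, SciPy 1.17.1 and matplotlib 3.10.9 were used.

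The members, the further list and the marker lists were chosen with earlier results of these data known. All 9 members were named, as were the 3 genes most like each over the 12 group means (for *Cyp27a1*, *Nr1h4* and *Slc10a1* the closest alone is printed) and the 6 genes of the further list with the smallest joint p among those called. Genes called within a genotype, the called canalicular genes, later-peaking genes of that list and those with an unadjusted p under 0.05 for the level were named in addition, after their values were seen. The marker lists of 9 cell types or states are printed as sums.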

Additional observations from a re-analysis of the deposited data

Results flagged for a closer look

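The rhythm of *Bmal1* (listed as *Arntl*), the gene that carries the deletion, differed between the genotypes in the test of the genotype by cosine and sine terms (adjusted p = 0.0463 over 11244 genes, limma). Its fitted amplitude was 2.57 ± 0.31 (SE) in WT and 0.29 ± 0.09 in ΔRRE on the log2 scale, a difference of -2.27 ± 0.34. None of the 9 bile acid genes was singled out by a difference between groups, and with 2 livers per group no group was large enough to test for single livers standing apart.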

How the results depend on the processing

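The count of members called rhythmic in WT, 2 of 9, was 4 with 1 FPKM added before the logarithm or with a mean of at least 5 FPKM (*Cyp7a1* and *Cyp8b1* in addition) and 6 by the criteria of the study's methods, which also moved the ΔRRE count from 2 to 5. Leaving out each library gave 2 to 3 members in WT, 2 to 3 in ΔRRE and 5 to 6 in the joint fit, and 0 for a difference in rhythm or in level. For pairs of genes each of the 12 groups was left out in turn, with 0 pairs called each time. The level difference (ΔRRE minus WT, log2) of *Slc10a1* was -0.03839 after rescaling by the median of ratios, and those of *Cyp7b1* and *Nr1h4* were 0.26 and 0.02503 without the 2 libraries with the highest acute-phase sums, an alternative added after the data were seen. Over single libraries left out, this difference ran from -0.32 to 0.01931 for *Cyp7a1*, -0.24 to 0.08702 for *Cyp7b1*, -0.05683 to 0.23 for *Nr0b2* and -0.03812 to 0.04278 for *Slc10a1*, so none of these 4 genes had a fixed direction, and from -0.30 to -0.08 for *Cyp8b1*. The cause was not tested. *Nr0b2* lost its joint call without a filter (adjusted p = 0.05375).

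The replicate numbers of the labels were not taken to pair the livers. Deviations from the group means correlated between -0.138 and 0.305 over the 66 pairs of groups, 20 of them above 0.1, and from -0.120 to 0.206 between WT and ΔRRE at the same time. With the replicate block the counts were 2 in WT, 2 in ΔRRE and 5 in the joint fit, with 0 for a difference in rhythm or level. The reads behind each FPKM value are unknown, so how far depth limits single members cannot be given.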

Other observations

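Marker sums for the position of hepatocytes in the lobule were computed because bile acid genes are known to be zonated. The pericentral list (*Glul*, *Cyp2e1*, *Oat*, *Cyp1a2*, *Axin2* and *Lgr5*) summed to between 3043 and 5394 FPKM per library and the periportal list (*Cyp2f2*, *Hal*, *Sds*, *Gls2* and *Hsd17b13*) to between 934 and 1684 FPKM. The highest periportal sums, 1684 and 1582 FPKM, were those of ΔRRE CT10 replicate 1 and ΔRRE CT14 replicate 1, the libraries that also had the highest acute-phase sums. In these libraries *Sds* (508 and 642 FPKM) and *Gls2* (273 and 248 FPKM) were above their means over all libraries of 194 and 145 FPKM. *Hal* (136 and 90.1 FPKM) and *Hsd17b13* (279 and 236 FPKM) were also above theirs, of 84 and 204 FPKM. Only *Cyp2f2*, the most abundant gene of the list by its mean, went the other way. It was at 488 and 366 FPKM against a mean of 518 over all libraries.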
